A study of Rattus norvegicus with 16 samples.

Results

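This account compares LPA4-knockout (KO) with wild-type (WT) rats in the injured state. It covers 8 of the 16 libraries of the study: 4 from KO rats and 4 from WT rats, all taken 28 days after spared nerve injury (SNI), a lesion of part of the sciatic nerve that is used as a model of neuropathic pain. Members were chosen by the group in their labels, not by any measured value. The tissue was the dorsal horn of the lumbar spinal cord, where sensory fibres from the hind limb end, and the libraries were made from poly(A) RNA. The other 8 libraries, 4 WT and 4 KO after a sham operation, enter as the source of a shared estimate of spread and as a second, separate look at genotype. The labels give neither the strain, sex or age of the rats nor how the knockout was made. Nor do they say if a library is 1 rat or a pool, and the p-values below refer only to variation from library to library, which may be technical.

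LPA4 is a G protein-coupled receptor for lysophosphatidic acid, a lipid messenger made outside cells by the enzyme autotaxin. Receptors of this family couple to several classes of G protein and act on the cytoskeleton, on cyclic AMP and on calcium. Lysophosphatidic acid is known for its part in the start of neuropathic pain after nerve injury, mostly through a different receptor, LPA1. The comparison asks how the injured dorsal horn differs when LPA4 is missing.

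The deposited table names genes only by Ensembl ID, and 0 of its 30560 IDs could be paired with a symbol from the reference table used here. Genes are therefore described by ID and level, with no function, the lists of cell types and pathways drawn up for the tissue were not used, and the labelled tissue could not be checked against its markers. The table also does not tell which ID is the targeted gene. After a filter on low counts 15237 IDs were tested, and these are the expressed IDs of the text. Levels are CPM, that is, counts scaled to a common library size with TMM factors, differences are log2 fold changes of KO minus WT, and an ID is said to be called where its edgeR adjusted p (Benjamini-Hochberg, over all 15237) is under 0.05.

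Library totals were 23890786 to 28090150 counts in KO SNI (mean 25420000) and 18200782 to 26583674 in WT SNI (mean 22070000). A two-sided exact permutation test did not tell the means apart (p = 0.229 over 70 arrangements). With 4 libraries a side this does not show that depth was equal. KO SNI replicate 1 stood apart. Its median correlation with the other 7 SNI libraries was 0.968, against 0.982 to 0.989 for those 7, and among the 10500 IDs that averaged at least 8 CPM (3 on the log2 scale), 169 were over 2-fold from the mean of the other 3 KO SNI libraries. In the 7 other SNI libraries that number was 22 to 63. The calls and bounds below are also given without this library. WT sham replicate 2, which is outside the comparison but adds to the shared spread, also stood apart.

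Only 2 of the 15237 expressed IDs were called between KO and WT after SNI, 1 lower and 1 higher, which is 0.0131% of the IDs tested. ENSRNOG00000002428 was absent from the KO libraries. It had 90, 93, 113 and 80 counts in WT SNI replicates 1 to 4, and 0 counts in each of the 4 KO SNI libraries. These WT values correspond to 4.26 ± 0.508 CPM (SD, n = 4). Taking 3 counts summed over the KO libraries as the limit of detection, its level was at least 143-fold lower in KO (edgeR adjusted p = 3.75e-06, and 1.05e-05 without KO SNI replicate 1). Over all 30560 IDs, including those under the filter, no other ID combined at least 3 counts in each WT SNI library with 0 in all 4 KO SNI libraries. The reverse pattern was found for 0 IDs. Counts of 0 in all 4 libraries of one genotype and above 0 in all 4 of the other were seen for 4 IDs absent in KO and 6 absent in WT. Apart from ENSRNOG00000002428, no ID absent in KO in this way exceeded 3 counts in a WT SNI library.

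ENSRNOG00000070277 rose in KO. Its level was 10.8, 13.02, 11.1 and 11.99 CPM in KO SNI replicates 1 to 4, and 6.17, 5.80, 6.02 and 6.78 CPM in WT SNI replicates 1 to 4. The lowest KO library lay well above the highest WT library. The log2 fold change was 0.92 (SE 0.11, edgeR adjusted p = 0.00246), or 1.90-fold, with a 95% interval of 1.62-fold to 2.22-fold. Without KO SNI replicate 1 it was 0.96 (SE 0.12, edgeR adjusted p = 0.00486). Over the 8 SNI libraries alone it was 0.92 (SE 0.11, edgeR adjusted p = 0.0364). After sham the same ID was also higher in KO, by 0.76 (SE 0.11, edgeR adjusted p = 0.0274), and its values there did not overlap. That difference comes from libraries that played no part in the difference after SNI, although both used 1 estimate of spread. In the sham comparison too, 0.0131% of IDs were called, and they were this pair.

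**Figure D1:**
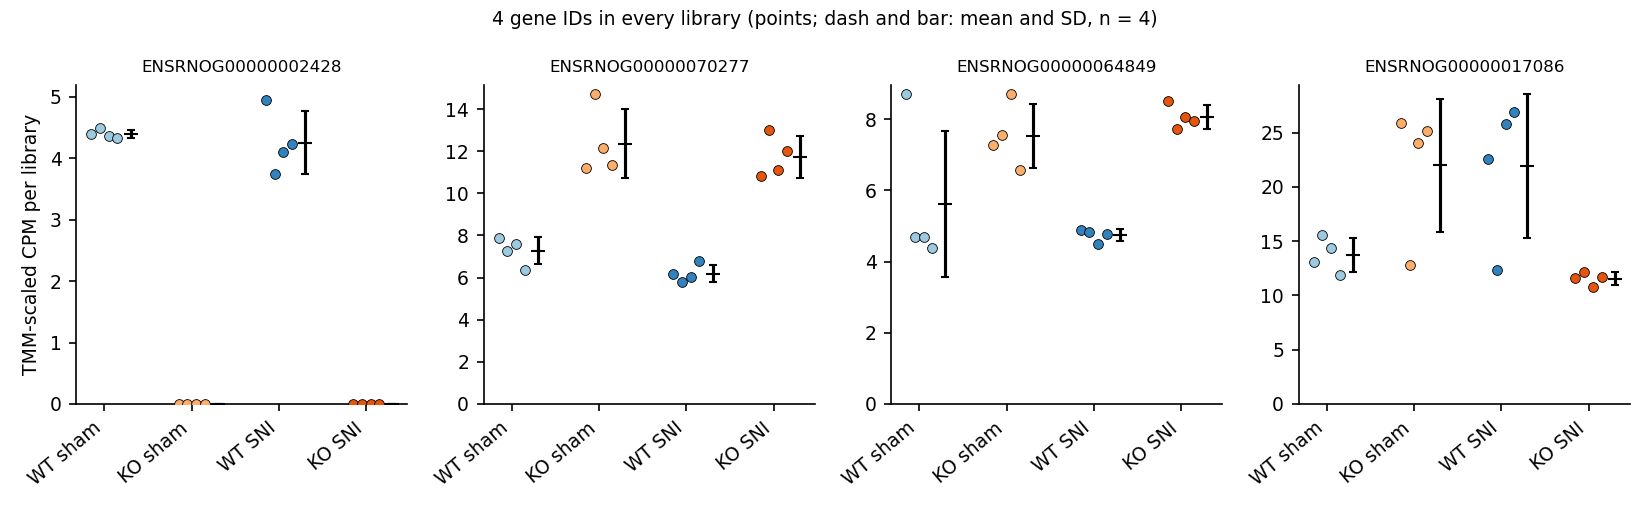
TMM-scaled CPM (linear axes from 0) of 4 gene IDs in each of the 16 libraries, grouped by genotype and operation, with points in replicate order and the mean and SD (n = 4) beside them. ENSRNOG00000002428 is at 0 in all KO libraries, ENSRNOG00000070277 is higher in all KO than in all WT libraries, ENSRNOG00000064849 has 1 high WT sham library at 8.70 CPM, and ENSRNOG00000017086 lies at 10.8 to 12.1 CPM in KO SNI.

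The next ID in rank, ENSRNOG00000064849, was not called over all 16 libraries or over the 8 SNI libraries alone. It was called only when WT sham replicate 1 was left out. Its level was 8.51, 7.73, 8.08 and 7.94 CPM in KO SNI replicates 1 to 4, against 4.90, 4.83, 4.50 and 4.76 CPM in WT SNI replicates 1 to 4. The groups did not overlap, and the gap between them was several times the spread within either. The log2 fold change was 0.77 (SE 0.18, edgeR adjusted p = 0.9999), with a 95% interval of 1.31-fold to 2.21-fold. In sham rats the KO libraries had 6.57 to 8.72 CPM. WT sham replicate 1 had 8.70 CPM and the other 3 WT sham libraries 4.39 to 4.70 CPM, so 7 of 8 WT libraries lay below 5 CPM and all 8 KO libraries above 6 CPM. A fit without WT sham replicate 1, which is no part of the comparison after SNI, was added after the data were seen. In it the estimate stayed at 0.77 (SE 0.10) and ENSRNOG00000064849 was called (edgeR adjusted p = 0.00997), making 3 called IDs. With no sham library in the fit, over the 8 SNI libraries alone, it was not called (edgeR adjusted p = 0.0882). The value was 0.185 when KO SNI replicate 1 was left out as well.

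ENSRNOG00000017086 ranked next among the lower IDs. It had 11.6, 12.1, 10.8 and 11.7 CPM in KO SNI replicates 1 to 4, and 22.6, 12.4, 25.8 and 26.9 CPM in WT SNI replicates 1 to 4. The KO libraries were tight, and 1 WT library lay just above them. The WT sham libraries, at 11.8 to 15.5 CPM, were near the KO SNI level. KO sham replicate 2 had 12.8 CPM and the other KO sham libraries 24.04 to 25.9 CPM, so levels did not follow genotype alone. The log2 fold change after SNI was -0.92 (SE 0.22, edgeR adjusted p = 0.9999), with a 95% interval of -1.40 to -0.45. Without KO SNI replicate 1 it was -0.92 (SE 0.25, edgeR adjusted p = 0.919). After sham the estimate had the opposite sign, 0.68 (SE 0.22, edgeR adjusted p = 0.878), and the interaction of genotype and operation was not called (edgeR adjusted p = 0.978).

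Beyond these IDs small p-values were few. At an unadjusted p under 0.05 there were 188 IDs (106 higher, 82 lower), or 1.23% of those tested. Under a limit of 0.5 the share was 39.03%. Both shares lie below the limits themselves, so the scarcity of small p-values does not show that genotype had no effect. The 4 KO and 4 WT libraries did not overlap for 181 IDs (93 higher, 88 lower), or 1.19%. Their median absolute log2 fold change was 0.26. Of the 181, 5 were also without overlap in the same direction after sham, the called pair included. After sham 2% of all IDs did not overlap, but that share counts either direction and is not a like base for the 5. Among the 181, 73 had the same sign of difference after sham. Over all 13967 IDs of at least 1 CPM, 46.8% had the same sign.

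The share of small p-values depended on KO SNI replicate 1. Without that library 658 of 15312 IDs had an unadjusted p under 0.05 (284 higher, 374 lower), or 4.3%, and over the 7 remaining SNI libraries alone 1115 of 15034 IDs did, or 7.42%. The called IDs were the same pair in both fits. The number of IDs without overlap was 1195 of 15237 once this library was left out, or 7.84% (676 higher, 519 lower). This share is not comparable with that of all 8 libraries, because 3 against 4 libraries separate more easily than 4 against 4. The median SD of log2 CPM within KO SNI, over the 10500 IDs of 8 CPM or more, was 0.131 with the library and 0.0998 without it, against 0.116 in WT SNI. The direction of small differences was also sensitive to it: of 15232 IDs tested both ways, 16.5% changed sign, with a median shift of 0.05 on the log2 scale.

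**Figure D2:**
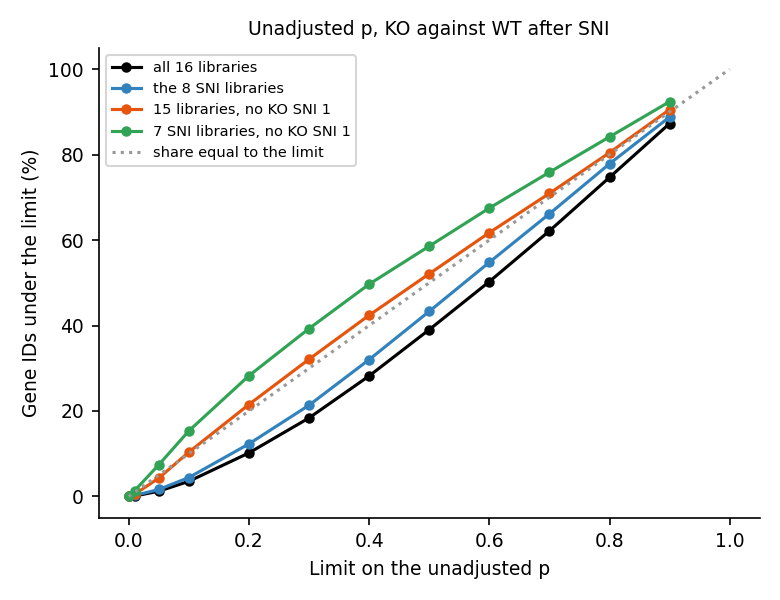
Share of gene IDs (%) with an unadjusted p under each limit, for KO against WT after SNI, in 4 fits; the dotted line marks a share equal to the limit. With KO SNI replicate 1 in the fit the curves run below the dotted line, with 1.23% of IDs under 0.05 over all 16 libraries, and without it they run higher, with 7.42% over the 7 remaining SNI libraries.

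Nearly all of the large but uncalled estimates at 8 CPM or more involved IDs that were far from their group in KO SNI replicate 1. In this library 147 IDs were over 2-fold higher and 22 over 2-fold lower than in the other KO SNI libraries. These 147 were chosen by that library's values, so what follows describes it and tests nothing. They took 1.64% of its counts, against 0.288% to 0.673% in the other SNI libraries. In WT SNI replicate 3, 55 IDs were over 2-fold above the rest of its group, and 44 were on both lists, which is 80% of the WT SNI replicate 3 list and 29.9% of the KO SNI replicate 1 list. The median difference of the 147 between KO and WT was 0.15 with KO SNI replicate 1 and -0.35 without it. At 8 CPM or more, 15 IDs had an estimate over 2-fold, 14 of them higher in KO, and 14 of the 15 were over 2-fold from the group in KO SNI replicate 1. Only 3 of the 15 stayed over 2-fold without it. Without that library 15 IDs of this level were again over 2-fold, 2 higher and 13 lower in KO.

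The clearest case was a set of 3 IDs with estimates above 5 on the log2 scale, singled out after their values were seen. The first was at 4289 CPM in KO SNI replicate 1, at most 12.1 CPM in the other KO SNI libraries and at most 59.0 CPM in WT SNI. The second was at 133 CPM in that library and at most 0.870 CPM in any other SNI library. The third was at 60.0 CPM there and at most 0.798 CPM in the others. The same 3 IDs were high in WT sham replicate 2, at 3105, 100.3 and 39.9 CPM, so the libraries that stood apart in KO SNI and in WT sham shared them. In the other sham libraries they reached at most 164, 1.67 and 4.71 CPM. None was called (lowest edgeR adjusted p = 0.9999), and without KO SNI replicate 1 their estimates were -1.59, -0.87 and -0.28. In bulk RNA more cells of a type and more RNA per cell cannot be told apart, and without names the source of these IDs was not tested.

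Because so few IDs were called, the size of difference that each ID's data allow was computed as a 95% interval of its log2 fold change. The median margin of the interval was 0.28 on either side, which is 1.21-fold. For 13595 of 15237 IDs (89.2%) the whole interval lay within a 2-fold difference in either direction and for 11131 (73.1%) within 1.5-fold. An interval within 4-fold was reached by 98.6%. A difference of 2-fold or more upward in KO was outside the interval for 14172 IDs, and one of 2-fold or more downward for 14301. For 0 IDs with an interval did all of it lie beyond 2-fold.

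**Figure D3:**
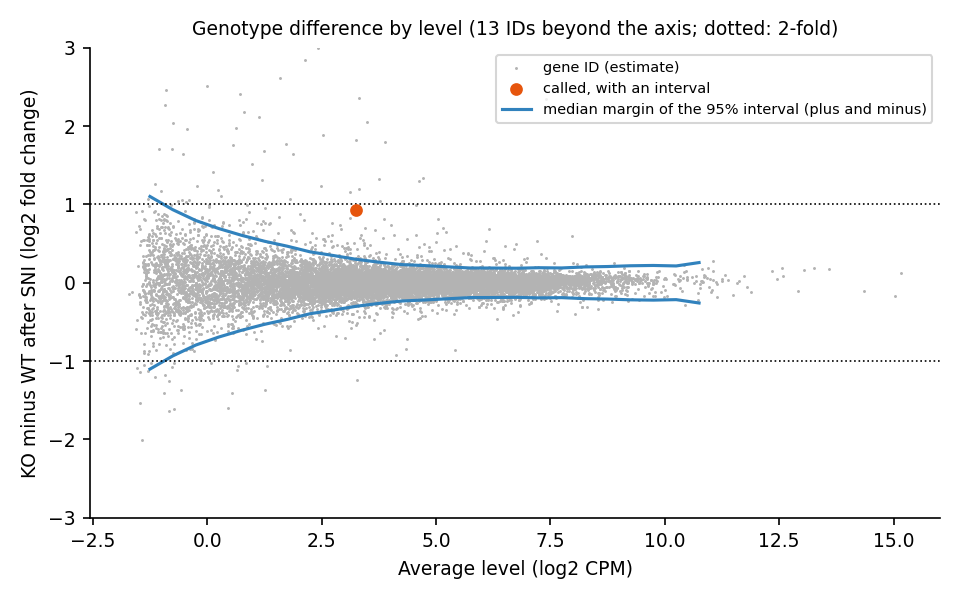
Log2 fold change of KO minus WT after SNI (vertical axis) against the average log2 CPM of each of 15235 gene IDs with an interval, fitted over all 16 libraries; 13 IDs lie beyond the axis. The lines give the median margin of the 95% interval in steps of level that hold at least 20 IDs, the dotted lines mark 2-fold, and the large point is ENSRNOG00000070277.

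The bounds varied with level. Among 3207 IDs with an average over 64 CPM the median margin was 0.19, and 95.1% had an interval within 1.5-fold and 99.2% within 2-fold. Among 7293 IDs at 8 to 64 CPM these shares were 90.1% and 97.8%. At 1 to 8 CPM, with 3548 IDs, they were 42.5% and 83.8%. Of 1189 IDs under 1 CPM, 0 had an interval within 1.5-fold, 26.2% had one within 2-fold and 91.7% one within 4-fold. For most IDs under 1 CPM the interval thus reached past a 2-fold difference.

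**Figure D4:**
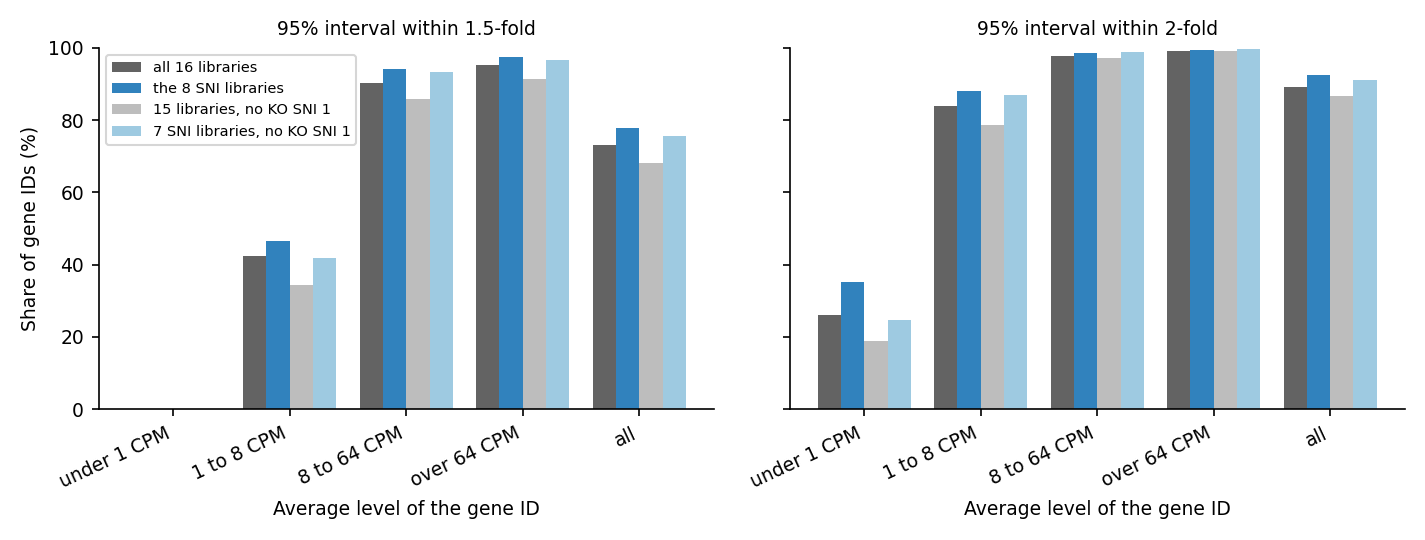
Share of gene IDs (%, axis from 0) whose 95% interval of the KO against WT difference after SNI lies within 1.5-fold (left) or 2-fold (right), by average level and over all IDs, in 4 fits. The shares rise with level, from 26.2% within 2-fold under 1 CPM to 99.2% over 64 CPM in the fit over all 16 libraries.

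Leaving out KO SNI replicate 1 lowered the share of intervals within these bounds, with and without the sham libraries in the fit. The intervals became slightly wider with the sham libraries and slightly narrower over the SNI libraries alone. The estimates became larger in both. Their median absolute log2 fold change went from 0.072 to 0.10 with the sham libraries and from 0.071 to 0.10 without them. Over the remaining 15 libraries 86.7% of IDs had an interval within 2-fold and 68.0% within 1.5-fold, with a median margin of 0.29. Without it a 2-fold difference upward was outside the interval for 14231 of 15312 IDs and one downward for 13934. The 8 SNI libraries alone gave 92.4% and 77.8%, and the 7 SNI libraries without that replicate gave 91.2% and 75.7%. Each fit tested its own number of IDs, from 14954 to 15312. Margins were narrower in the fits over SNI libraries alone (0.25 and 0.24). Those fits include no sham library and held fewer IDs under 1 CPM (921 and 992, against 1189 over all 16 libraries). The margin was also 0.25 in the 16-library fit less WT sham replicate 2. The source of the narrower margins was not tested. The 95% intervals above hold for 1 ID at a time. Intervals that hold for all 15237 IDs together (Bonferroni) were wider, with a median margin of 0.92, or 1.89-fold. Of these, 49.7% lay within 2-fold and 80.2% within 4-fold, and for ENSRNOG00000070277 this interval ran from 0.16 to 1.69. The share of simultaneous intervals within 2-fold fell to 42.95% without KO SNI replicate 1 and was 42.3% over the 8 SNI libraries alone. Within 1.5-fold it was 13.3% over all libraries and 8.255% without KO SNI replicate 1. In that last fit the simultaneous interval of ENSRNOG00000070277 ran from 0.12 to 1.80.

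The 1642 IDs without a 2-fold bound were mostly scarce. Their median level, as a mean over the 8 SNI libraries, was 0.847 CPM, against 19.6 CPM over all IDs, and 56.1% averaged under 1 CPM. By the average over all 16 libraries that sets the classes of level above, 53.5% did. An upward difference alone could reach past 2-fold for 706, a downward one alone for 577 and either for 357. The 2 IDs left had 0 counts in one genotype and no interval. At 8 CPM or more 189 IDs lacked the bound, and 97 of them (51.3%) were over 2-fold from their group in KO SNI replicate 1. Without that library 2033 IDs lacked the bound, 242 of them at 8 CPM or more. Estimates over 2-fold were found for 86 IDs, 60 higher and 26 lower in KO, of which 28 had an unadjusted p under 0.05.

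The IDs ranked first after SNI were then looked up in the sham libraries, which did not enter the differences after SNI but share in the spread behind the p used for ranking. Of the 20 IDs with the smallest p among those higher in KO after SNI (mean of at least 1 CPM over the SNI libraries), 8 were higher in KO after sham, and of the 20 lower ones 9 were lower. The median differences of these lists were 0.36 and -0.40 after SNI, and -0.03 and 0.03 after sham. With 100 IDs in each direction, 32 and 47 kept their sign. Over all 13967 IDs of at least 1 CPM the share with the same sign was 46.8%, and 47.9% were higher in KO after sham. An unadjusted p under 0.05 in the same direction after sham was found for 4 of the 20 higher and 2 of the 20 lower IDs, the called pair included, and for 10 and 3 of the lists of 100. In the opposite direction such a p was found for 2 of the 20 higher and 1 of the 20 lower IDs. In the lists of 100 it was found for 4 higher and 4 lower IDs. Over all 13967 IDs of at least 1 CPM, 1.8% had an unadjusted p under 0.05 after sham higher in KO and 1.99% lower. The difference of these shares from the ranked lists was not tested. A pair of rankings that used no sham library was added after the data were seen. Ranked over the 8 SNI libraries alone, 9 of 20 higher and 12 of 20 lower IDs kept their sign after sham. Ranked without KO SNI replicate 1 as well, 5 and 13 did. Across 13966 IDs, which are not independent replicates, and leaving out ENSRNOG00000002428, the differences after SNI and after sham gave a Pearson r of -0.353 (Spearman rho -0.0807). With that ID r was -0.202 over 13967 IDs. The value leaving it out turned to 0.138 without KO SNI replicate 1 (Spearman rho 0.0024) and to 0.134 without WT sham replicate 2 (Spearman rho -0.132). Without both it was -0.146 (Spearman rho -0.235), and 40.4% of IDs had the same sign.

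**Figure D5:**
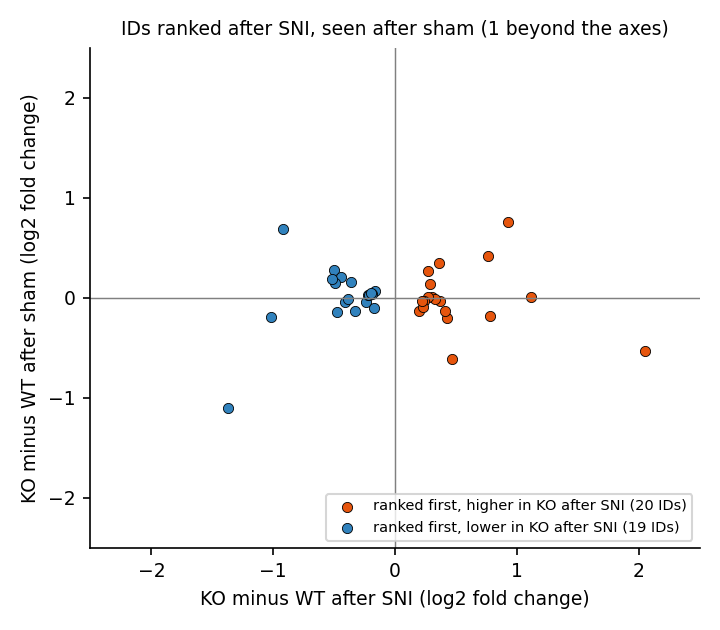
Difference of KO minus WT (log2 fold change) after sham (vertical) against that after SNI (horizontal) for the 20 higher and 19 lower IDs ranked first after SNI; ENSRNOG00000002428, with 0 counts in KO, is not drawn and 1 ID lies beyond the axes. Points of both colours fall on either side of 0 on the sham axis: 8 of the 20 higher IDs are above 0.

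The IDs raised by the injury itself were also compared between genotypes in injured rats. The same fit called 139 IDs higher and 0 lower after SNI, averaged over genotypes, with a median log2 fold change of 0.76. The list was thus chosen with the SNI libraries of both genotypes, weighted equally. In injured rats 61 of the 139 were higher and 78 lower in KO, with a median difference of -0.02 (0.01 over all 15237 IDs) and a range of -0.58 to 0.62. By edgeR 0 of the 139 were called between genotypes, against 0.0131% of all IDs, and 0 had an unadjusted p under 0.05, against 1.23% of all IDs. At shares this low a list of 139 IDs would hold few or none, so these counts say nothing particular about the list. DESeq2 called only the pair named above among all IDs. The 95% interval lay within 2-fold for 132 of the 139 (95%, against 89.2% of all IDs). It lay within 1.5-fold for 102 (73.4%, against 73.1% of all IDs).

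The mean log2 level of the 139 IDs, set to 0 at the mean of WT SNI, was 0.29, 0.03, -0.18 and -0.18 in KO SNI replicates 1 to 4. It was 0.07, 0.23, -0.05 and -0.26 in WT SNI replicates 1 to 4. The genotypes overlapped over nearly their whole range, and KO SNI replicate 1 was the highest library. Without it 113 of the 139 were lower in KO, with a median difference of -0.13, against 7893 of 15232 IDs lower overall. The list had been chosen with KO SNI replicate 1 in the fit and was not chosen anew. Leaving out its highest library lowers the KO mean, so these counts are no test of genotype. Again 0 of the 139 had an unadjusted p under 0.05, against 657 of the 15232 IDs. An interval within 2-fold was found for 129 of the 139 (92.8%), against 87.2% of the 15232.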

How the data were processed

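RNA-seq was analysed in 4 KO SNI and 4 WT SNI libraries, with 4 WT sham and 4 KO sham libraries in the same fit. The titles of the KO sham samples have "WT" where the operation should stand; their column headers say sham, and they were used as such. The authors deposited expected counts per Ensembl gene ID (96.4% whole numbers), 1 column per library. Per the submitters' processing notes, fastp 0.22.0, STAR 2.7.9a, RSEM 1.3.1 and the build mRatBN7.2 were used; settings and annotation release: not given in the sources used here. Expected counts split reads among similar genes, so an ID with a near-identical copy is less certain.

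Counts were rounded, filtered with filterByExpr (minimum count 10; 15237 IDs with 99.97% of counts) and scaled by TMM. EdgeR 4.0.16 (R 4.3.3) fitted quasi-likelihood models with 1 mean per group over all 16 libraries. Intervals used the Wald standard error with the moderated dispersion, never under the Poisson error; simultaneous ones used the Bonferroni quantile. Log2 CPM had a prior count of 2. The common coefficient of variation was 18%. Floors cover counting error only. The script was tested on counts simulated independently for each ID and library. No simulated library stood apart, so that test does not cover libraries such as KO SNI replicate 1. All 28 pairs of SNI libraries differed by more than counting error (ratio of chi-square to its degrees of freedom, 10.5 to 68.9).

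IDs were named by smallest p, at most 2 in each direction, over those with a mean of at least 1 CPM. The planned lists needed symbols, and the reference table (GRCr8, 47357 genes, 0 with an Ensembl ID) gave none, so they and the rest of the naming rule were not used. The comparison and its measures were chosen with earlier results of these data known. Alternatives were DESeq2 1.42.0, limma 3.58.1 voom with and without quality weights, DESeq2 size factors, other filters, robust dispersions, a replicate block, SNI libraries alone, and leaving out libraries.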

Additional observations from a re-analysis of the deposited data

Results flagged for a closer look

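Of 24 sets of 4 values checked for 1 value far from the other 3, 4 held one, where chance gives about 1 in 20 sets. In WT sham, ENSRNOG00000064849 reached 8.70 CPM in replicate 1 while replicates 2 to 4 had 4.39 to 4.70 CPM. In KO sham, the low value of ENSRNOG00000017086 was 12.8 CPM in replicate 2, with 24.04 to 25.9 CPM in the remaining 3 replicates. WT SNI replicate 1 held the highest or lowest value of the 8 SNI libraries for 32.6% of 10500 IDs, against 17.2% to 19.6% in the other WT SNI libraries. In KO SNI replicates 1 to 4 this share was 36.3%, 26.3%, 35.3% and 15%. WT SNI replicate 1 also had the lowest total of the 8, 18200782 counts. The median correlation of KO SNI replicate 1 with the SNI libraries other than itself was 0.968, and that of KO SNI replicates 2 to 4 was 0.986 to 0.989.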

How the results depend on the processing

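Under 27 alternatives, 20 of them planned and 7 (leaving out each other sham library) added after the data were seen, the same pair of IDs was called each time, and ENSRNOG00000064849 was added only without WT sham replicate 1 (edgeR adjusted p = 0.00997; 0.0882 to 1.0 in the others). ENSRNOG00000070277 had log2 fold changes of 0.87 to 0.97 and adjusted p values from 1.98e-10 to 0.0364. Intervals lay within 2-fold for 13188 to 13949 IDs and within 1.5-fold for 10407 to 11846, with median margins of 0.23 to 0.32. The number of IDs tested ran from 14180 to 20140, so the shares depended on the filter. With no filter on low counts they were 67.65% within 2-fold and 55.45% within 1.5-fold. With at least 1 CPM in at least 4 libraries they were 94.04% and 78.43%. The count at an unadjusted p under 0.05, 188 over all libraries, ran from 119 without WT SNI replicate 1 to 1115 over the SNI libraries without KO SNI replicate 1; it was 197 by DESeq2, 185 by limma voom and 629 with quality weights, which weight libraries by their spread. Same-numbered KO SNI and WT SNI libraries deviated together in 3 of 4 pairs (correlations 0.304, 0.22, -0.161 and 0.247), with 1 pair below 0, so the numbers were not taken as pairs, although 3 of 4 KO SNI libraries correlated best with their own number. With the replicate number as a block 2 IDs were called, 13514 IDs lay within 2-fold and 11067 within 1.5-fold, with a median margin of 0.279. Of the IDs ranked first after SNI, 5 of 20 higher ones kept their sign after sham when ranked over the SNI libraries without KO SNI replicate 1, against 8 over all libraries. Under 1 CPM 311 of 1189 IDs (26.2%) lay within 2-fold over all libraries and 325 of 921 (35.3%) over the 8 SNI libraries alone. The second fit tested fewer of these scarce IDs, so the 2 shares rest on different sets and are not directly comparable. The part of depth was not tested.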
